A study of Mus musculus with 18 samples.

Results

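The adult globin chains and the erythroid form of the first heme enzyme were followed in the left ventricles of wild-type mice and of mice lacking the microprotein mORF4/NBDY. The set was fixed by gene name: Hba-a1 and Hba-a2 (alpha globin), Hbb-bs and Hbb-bt (beta globin) and Alas2 (erythroid 5-aminolevulinate synthase). All 5 were present among the 10597 genes of the deposited tables. Hearts 1 to 4 came from wild-type mice and hearts 6 to 10 from mORF4/NBDY KO mice. All 9 animals were untreated male C57BL/6 mice aged 20 weeks under normal housing. The labels do not describe the knockout allele, the number of founder lines or whether the hearts were rinsed of blood. Each left ventricle gave 1 poly-A RNA library and 1 library of ribosome footprints, the mRNA fragments covered by ribosomes. Values are normalized reads, taken to be reads divided by 1 size factor per library. They are not scaled to transcript length, so levels are compared between hearts and not between genes. Nbdy, the targeted gene, had 107 to 355 footprint reads (normalized) in wild type and 10.9 to 19 in knockout, and its RNA, at 100 to 116 and 61.8 to 90, was reduced less.

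Adult haemoglobin is a tetramer of alpha and beta chains, each holding a heme, and carries oxygen in red cells. Globin genes are transcribed in erythroid precursors, and their mRNA persists in reticulocytes, the young red cells that have lost the nucleus. Heme itself is built from glycine and succinyl-CoA, and the first step is carried out by ALAS2 in erythroid cells and by ALAS1 in other tissues. In a ventricle, these erythroid transcripts are generally taken as a sign of blood within the tissue. In bulk tissue, fewer cells of a type and less RNA per cell cannot be told apart.

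The alpha genes lie side by side on chromosome 11, with starts 12.8 kb apart (Hba-a1 at 32283672 to 32284486 and Hba-a2 at 32296492 to 32297310, GRCm38.p6). The beta genes lie on chromosome 7, with starts 14.0 kb apart (Hbb-bt at 103812524 to 103813923 and Hbb-bs at 103826523 to 103827928). Alas2 lies on the X chromosome at 150547417 to 150570622, and its start is 3.18 Mb from that of Nbdy, the targeted gene. The bearing of promoter sequence on the values in these hearts was not tested. The 250 bases before the RefSeq start of 4 of the genes follow, to show how far their proximal promoters are alike. They are written 5′ to 3′ along the gene, with matches on either strand to the TATA box (TATAA), the CCAAT box (CCAAT), the CACCC box (CACCC) and the core of the GATA site (GATAA) in capitals. The windows are chr11:32283422-32283671 (plus strand) for Hba-a1, chr7:103827929-103828178 (minus strand) for Hbb-bs, chr7:103813924-103814173 (minus strand) for Hbb-bt and chrX:150547167-150547416 (plus strand) for Alas2.
Hba-a1: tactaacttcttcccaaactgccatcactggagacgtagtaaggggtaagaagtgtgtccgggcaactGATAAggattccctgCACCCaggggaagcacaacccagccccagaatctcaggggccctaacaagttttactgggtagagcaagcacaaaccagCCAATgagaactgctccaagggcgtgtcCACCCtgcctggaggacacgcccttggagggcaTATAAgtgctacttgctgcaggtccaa
Hbb-bs: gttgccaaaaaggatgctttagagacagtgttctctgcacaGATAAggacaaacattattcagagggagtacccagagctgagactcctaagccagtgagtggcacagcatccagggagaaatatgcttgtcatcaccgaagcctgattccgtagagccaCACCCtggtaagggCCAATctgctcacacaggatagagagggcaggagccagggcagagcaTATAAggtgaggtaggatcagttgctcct
Hbb-bt: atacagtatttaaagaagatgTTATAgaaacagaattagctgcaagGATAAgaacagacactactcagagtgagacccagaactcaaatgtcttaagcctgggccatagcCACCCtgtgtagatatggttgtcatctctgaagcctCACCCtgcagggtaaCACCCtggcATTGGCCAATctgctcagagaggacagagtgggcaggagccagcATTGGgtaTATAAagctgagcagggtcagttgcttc
Alas2: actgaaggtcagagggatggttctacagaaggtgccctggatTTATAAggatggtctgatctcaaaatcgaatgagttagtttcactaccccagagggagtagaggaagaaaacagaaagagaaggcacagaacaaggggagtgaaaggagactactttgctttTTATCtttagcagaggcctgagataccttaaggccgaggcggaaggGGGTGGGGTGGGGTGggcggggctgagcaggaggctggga

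Each of the globin windows held all 4 of these short motifs, and so did 0.965% of 32536 distinct RefSeq windows of the same length. Singly, TATAA was in 22.7% of the windows, CCAAT in 33.8%, CACCC in 52.1% and GATAA in 22.5%. Counted from the start, TATAA began at -27 in Hba-a1, -29 in Hbb-bs and -28 in Hbb-bt, and CCAAT at -88, -76 and -75. In the Hbb-bt window a CCAAT and its reverse complement lay end to end. The Alas2 window held no CCAAT. Its TATAA matches on opposite strands overlapped, and it had GATAA and CACCC matches on the opposite strand only. The Hba-a2 window, 3 bases out of register with that of Hba-a1, was identical to it over the 247 bases they share. The Hbb-bs and Hbb-bt windows matched at 51% of 249 positions at the best single shift without gaps. For Hba-a1 and Hbb-bs it was 32.1% of 243. A single shift does not allow for insertions or deletions. A match is a string of letters and not evidence that a factor is bound there.

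Globin RNA was abundant in every heart, and of the 5 genes only Hbb-bs passed the test between genotypes. Hba-a1 RNA, as listed for 1 alpha globin gene, was 13936, 19828, 22861 and 18149 normalized reads in wild-type hearts 1 to 4, and 18674, 22892.5, 26200, 18029 and 18023 in knockout hearts 6 to 10. Hba-a2 RNA, as listed for the other alpha gene, was 13581, 19375, 22235 and 17698 in the same wild-type hearts and 18167, 22243, 25405, 17488 and 17489 in the knockout hearts. In both genes wild-type heart 1 was lowest, knockout heart 8 highest, and the genotypes overlapped. Hba-a1 over Hba-a2 RNA stayed between 1.023 and 1.031 over all hearts, so these values should not be read as separate measurements. How far they share reads was not tested.

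Hbb-bs RNA, from 1 beta globin gene, was 9671, 12746, 14484 and 10699 normalized reads in wild type and 16020, 18803, 22447, 14505 and 14478 in knockout. Here 4 of 5 knockout hearts lay above all wild-type hearts, and knockout heart 10 fell just short of wild-type heart 3. Hbb-bt RNA, from its neighbour, was 6510, 8714, 10840 and 7850 in wild type and 9302, 12016, 14514, 8992 and 9057 in knockout. Only knockout hearts 7 and 8 exceeded every wild-type heart for Hbb-bt. Alas2 RNA was far lower in reads, at 320, 420, 375 and 364 in wild type and 371, 477, 573, 334 and 301 in knockout, so the knockout hearts spanned the wild-type range on both sides.

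**Figure D1:**
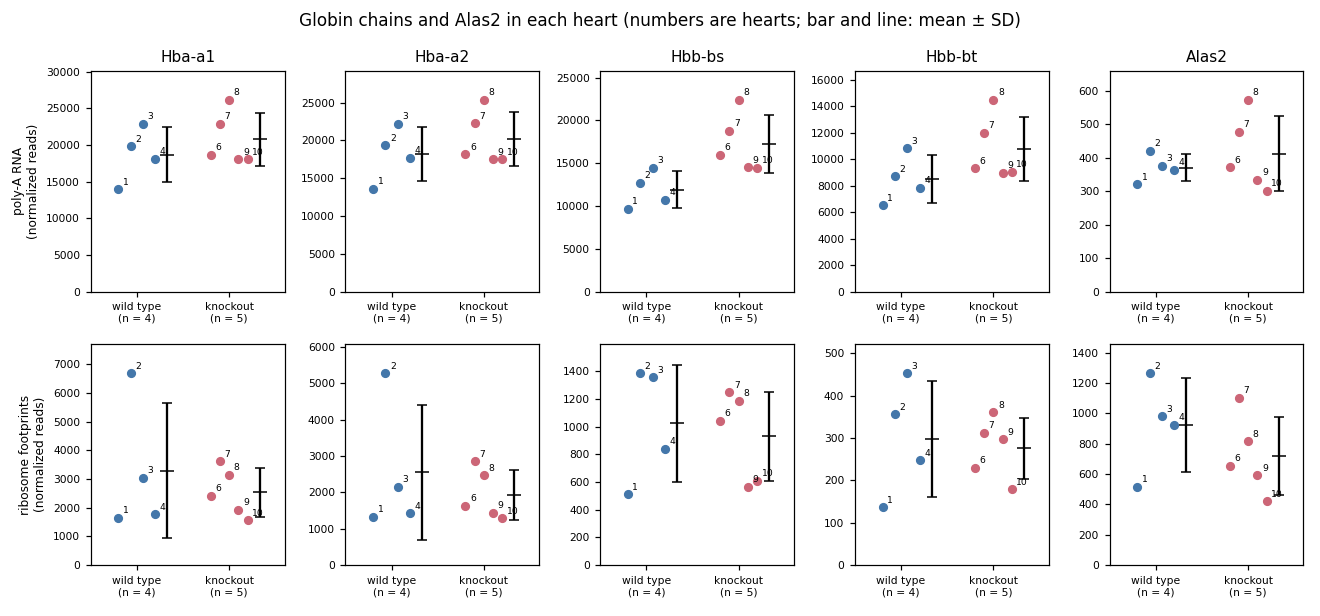
Poly-A RNA (top row) and ribosome footprints (bottom row) of the 5 genes, in normalized reads, with 1 point per heart, heart numbers beside the points, and the mean ± SD of each genotype. Hbb-bs RNA was above all wild-type hearts in 4 of 5 knockout hearts, and wild-type heart 2 had the highest alpha globin footprints, at 6696 for Hba-a1.

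Hbb-bs RNA rose in knockout, from 11900 ± 2145 (SD, n = 4) to 17250 ± 3397 (SD, n = 5). This is 0.53 ± 0.14 on the log2 scale (SE), with a 95% interval of 0.22 to 0.85 and a limma adjusted p = 0.00922. Over the alternative settings its adjusted p ranged from 0.000811 to 0.0327, and its log2 fold change from 0.43 to 0.63. Of all 10580 genes tested in RNA 49.4% were called, 24.3% higher and 25.1% lower in knockout, so 1 call among 5 genes is below the share seen across the transcriptome. The median log2 fold change of the 5 was 0.16, against 0.01 over all genes. None of the 5 had genotypes that did not overlap in RNA level, while 40.5% of all genes did, and 19.8% of all genes were higher in every knockout heart.

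Hbb-bt RNA was 8479 ± 1817 (SD, n = 4) and 10776 ± 2440 (SD, n = 5), a log2 difference of 0.34 ± 0.16 (SE; limma adjusted p = 0.104). It passed with quantile normalization (limma adjusted p = 0.0366) and without wild-type heart 3 (limma adjusted p = 0.0352). For the alpha genes the differences were 0.16 (interval -0.16 to 0.48) for Hba-a1 and 0.15 (interval -0.17 to 0.47) for Hba-a2, and for Alas2 0.12 (interval -0.25 to 0.49). These 3 genes did not pass the test, at limma adjusted p = 0.393, 0.411 and 0.579. Summed over the 4 globins, RNA was 57295 normalized reads in wild type, or 0.363% ± 0.0735 of the library (SD, n = 4), and 68949 in knockout, or 0.482% ± 0.0853 (SD, n = 5), with overlapping genotypes. If reads matching both alpha copies were counted for each, this sum holds them more than once, which was not tested. Knockout RNA libraries were all deeper than wild-type ones (15.8 to 20.2 M against 11.2 to 12.4 M reads over the listed genes, with M for 1e6). Any batch effect on the RNA libraries cannot be told apart from the knockout.

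Footprints on the same genes were more variable, and none of the 5 passed the test between genotypes. Hba-a1 footprints were 1655, 6696, 3040 and 1767 normalized reads in wild type and 2418, 3613, 3155, 1930 and 1555 in knockout. Hba-a2 footprints were 1324, 5281, 2155 and 1429 in wild type and 1630, 2850, 2473, 1429 and 1284 in knockout. Wild-type heart 2 stood above all others for both alpha genes, with values that rest on 1940 and 1530 reads, and the remaining hearts overlapped.

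Hbb-bs footprints were 512, 1387, 1358 and 841 in wild type and 1042, 1248, 1187, 568 and 609 in knockout. Hbb-bt footprints were 136, 355, 453 and 248 in wild type and 229, 312, 360, 297 and 179 in knockout, from as few as 103 reads in wild-type heart 2. For both beta genes every knockout heart lay inside the wild-type range. Alas2 footprints were 515, 1267, 983 and 926 in wild type and 654, 1105, 817, 591 and 421 in knockout, with only knockout heart 10 below every wild-type heart.

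In limma the footprint log2 differences were -0.20 (interval -0.89 to 0.49) for Hba-a1, -0.23 (interval -0.92 to 0.46) for Hba-a2 and -0.11 (interval -0.72 to 0.51) for Hbb-bs. They were -0.02 (interval -0.67 to 0.63) for Hbb-bt and -0.36 (interval -0.92 to 0.19) for Alas2. The limma adjusted p was at least 0.854 for each, and edgeR and DESeq2 on whole footprint reads called none of the 5 either. Of 9976 genes tested in footprints limma called 0.02%, edgeR called 0.02% of 10004 and DESeq2 0.0583% of 10299. An unadjusted limma p below 0.05 was found for 5.06% of genes and for 0 of the 5. Genotypes did not overlap for 1.6% of genes, 0.772% higher in knockout, and for 0 of the 5. The intervals are wide: they include a rise as large as that of Hbb-bs RNA only for Hbb-bt. Wild-type heart 2 was also the shallowest footprint library, at 6.67 M reads, where the other wild-type libraries reached 36.7 M and knockout libraries held 22.9 to 40.8 M. Without it the differences turned to 0.22 for Hba-a1, 0.20 for Hba-a2, 0.08 for Hbb-bs and 0.11 for Hbb-bt, none past the test, while Alas2 was at -0.19.

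The 5 genes separated by their ratio of footprint to RNA signal, a measure of ribosome occupancy per transcript called translational efficiency in the authors' table. The globins were far below most genes and Alas2 was above the median. Among 10060 protein-coding genes with an RNA mean of at least 10, the ratio of wild-type means had a median of 1.40. Hba-a1 was at 0.176, or the percentile 7.20 of these genes, Hba-a2 at 0.140 (percentile 6.29), Hbb-bs at 0.0861 (percentile 4.90) and Hbb-bt at 0.0352 (percentile 3.67). The median gene thus had 7.93 times the ratio of Hba-a1 and 39.7 times that of Hbb-bt. Alas2 was at 2.50 (percentile 74.9). In knockout the order was the same, from 0.122 for Hba-a1 (percentile 5.83) down to 0.0256 for Hbb-bt (percentile 3.19), with Alas2 at 1.74 (percentile 59.2). The members of each pair are close in sequence, so short footprints and longer RNA reads can differ in how many could be assigned to 1 copy. The part of that in these ratios was not tested.

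**Figure D2:**
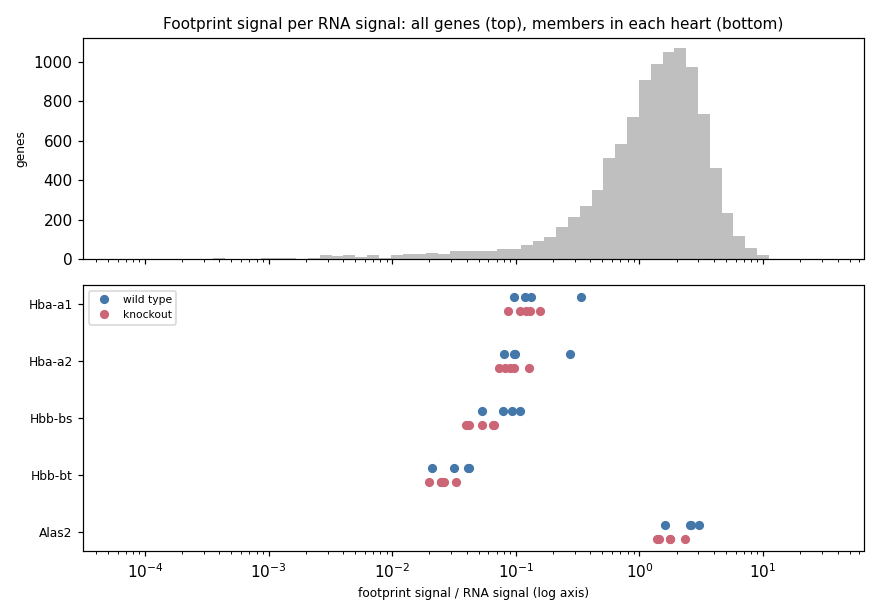
Ratio of footprint to RNA signal on a log axis, as a histogram over genes with an RNA mean of at least 10 of the ratio of means over all 9 hearts, genes without footprints left out (top), and for the 5 genes with 1 point per heart and genotypes in separate colours (bottom). All globin points lie left of the bulk of genes, at 0.338 or less, while Alas2 lies between 1.40 and 3.02.

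In single hearts the ratio of Hbb-bs was 0.0529, 0.109, 0.0938 and 0.0786 in wild type and 0.0650, 0.0664, 0.0529, 0.0391 and 0.0420 in knockout, with 3 of 5 knockout values under the lowest wild-type one. The mean was 0.0835 ± 0.0239 (SD, n = 4) against 0.0531 ± 0.0126 (SD, n = 5). As a genotype by assay interaction the log2 difference was -0.64 (interval -1.44 to 0.16; limma adjusted p = 0.298). When each heart was entered as a replicate block, pairing its libraries, the value was -0.64 ± 0.20 (SE) and passed (limma adjusted p = 0.0392). With the block 18.6% of 9974 genes were called, 8.65% of them lower in knockout as a share of all genes. Without it 14.4% were called, 7.83% higher and 6.55% lower, and 0 of the 5 members. Genotypes did not overlap in efficiency for 18.3% of genes, 9.55% higher in knockout, and for 0 of the 5. RNA enters the ratio, so this value and that of Hbb-bs RNA are not independent.

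Alas2 had ratios of 1.61, 3.02, 2.62 and 2.55 in wild type and 1.76, 2.31, 1.43, 1.77 and 1.40 in knockout. Only knockout hearts 8 and 10 were below every wild-type heart, and the log2 difference of -0.48 (interval -1.24 to 0.28) did not pass with or without the block (limma adjusted p = 0.111 and 0.423). Hba-a1 ratios were 0.119, 0.338, 0.133 and 0.0973 in wild type and 0.0863 to 0.158 in knockout. Hba-a2 ratios were 0.0975, 0.273, 0.0969 and 0.0807 in wild type and 0.0734 to 0.128 in knockout, so for both alpha genes wild-type heart 2 stood alone at the top. Hbb-bt ratios were 0.0209 to 0.0418 in wild type and 0.0198 to 0.0331 in knockout. The log2 differences of Hba-a1, Hba-a2 and Hbb-bt were -0.36, -0.38 and -0.37, none past the test, and without wild-type heart 2 those of the alpha genes were 0.03 and 0.02.

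The balance among the globin transcripts differed between genotypes more clearly than their total. The RNA ratio of alpha (Hba-a1 plus Hba-a2) to beta (Hbb-bs plus Hbb-bt) was 1.70, 1.83, 1.78 and 1.93 in wild type and 1.46, 1.47, 1.40, 1.51 and 1.51 in knockout. The highest knockout heart was thus below the lowest wild-type one, with a mean of 1.81 ± 0.0968 (SD, n = 4) against 1.47 ± 0.0472 (SD, n = 5). As background, when each of 10575 other genes was divided by the summed alpha RNA, 12.6% did not overlap, and 1.80% were higher in every knockout heart, as beta globin was. Within the beta pair, Hbb-bs over Hbb-bt was 1.49, 1.46, 1.34 and 1.36 in wild type and 1.72, 1.56, 1.55, 1.61 and 1.6 in knockout, again with no overlap. Of the other genes divided by Hbb-bt, 16.1% did not overlap and 0.652% were higher in every knockout heart. Of the other genes, 1140 over alpha and 1630 over Hbb-bt were lower in every knockout heart. Globins varied together across hearts and other genes need not, so these shares are not a like background for a ratio of 2 globins. In plain RNA level 40.5% of all genes did not overlap. The globin ratios are a description and were given no test. Alpha reads counted for both copies, if any, would raise the alpha to beta ratio, which was not tested.

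The RNA ratio within the alpha pair varied far less, and its genotypes overlapped. Hba-a1 over Hba-a2 RNA lay between 1.02 and 1.03 in all 9 hearts. It was 1.023 to 1.028 in wild type and 1.028 to 1.031 in knockout, with means of 1.026 and 1.030. Members of each pair are close copies, and how reads matching both were assigned was not tested. The values of single genes within a pair, their sums and the contrast between the alpha and beta pairs are therefore uncertain. In footprints the picture was looser. Hba-a1 over Hba-a2 was 1.24 to 1.41 in wild type and 1.21 to 1.48 in knockout, Hbb-bs over Hbb-bt 3.00 to 3.90 and 1.91 to 4.55, and alpha over beta 2.87 to 6.87 and 3.19 to 4.14, all with overlapping genotypes. The shift in alpha to beta RNA was therefore not detectable in footprints at this spread.

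**Figure D3:**
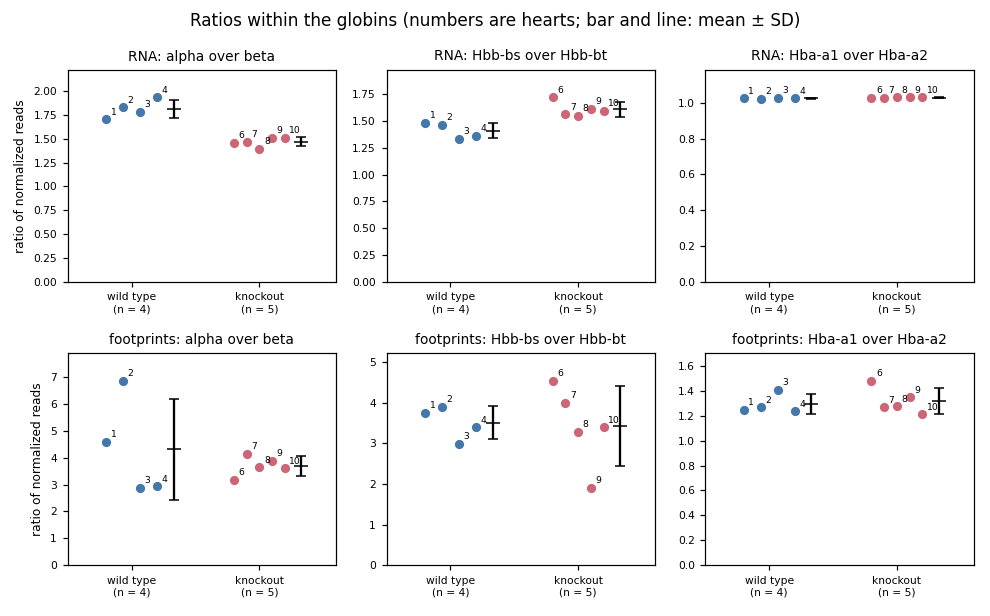
Ratios of normalized reads within the globins, in RNA (top row) and footprints (bottom row), with 1 point per heart, heart numbers, and mean ± SD of each genotype. Alpha over beta and Hbb-bs over Hbb-bt RNA separate the genotypes without overlap, whereas Hba-a1 over Hba-a2 RNA is 1.02 to 1.03 in all hearts.

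Across the 9 hearts the members varied together within each assay. In RNA the Pearson r of log2 values was 0.836 to 1.00 over the 6 pairs of globins and 0.725 to 0.828 between Alas2 and a globin. In footprints it was 0.650 to 0.990 over the globin pairs and 0.757 to 0.854 with Alas2. These values describe 9 hearts of 2 genotypes, and the members share their library. The r of 1.00 in RNA was that of the alpha pair, whose values may share reads. Knockout hearts 7 and 8 were highest in RNA for all 5 genes among knockout hearts, and also for all 5 in footprints.

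RNA and footprints of the same heart were then related for each gene. Pearson's r was 0.573 for Hba-a1, 0.561 for Hba-a2, 0.504 for Hbb-bs, 0.697 for Hbb-bt and 0.651 for Alas2. None passed after adjustment over the 5 relations (exact permutation tests, two-sided, n = 9; raw p = 0.109, 0.117, 0.166, 0.0311 and 0.0484, adjusted p = 0.121 to 0.166). Spearman's rho was 0.85, 0.8, 0.333, 0.6 and 0.783 (exact permutation raw p = 0.00607, 0.0138, 0.385, 0.0968 and 0.0172), and Hba-a1, Hba-a2 and Alas2 passed at an adjusted p = 0.0287. Without the 2 hearts farthest from the median RNA value, r was 0.570, 0.558, 0.175, 0.440 and 0.943. Only Alas2 then passed (exact permutation adjusted p = 0.00992, n = 7), without knockout hearts 7 and 8. For each globin the hearts left out were wild-type heart 1 and knockout heart 8, and Hbb-bs had not passed with all 9 hearts either. With each genotype's mean subtracted, r was 0.662, 0.655, 0.873, 0.837 and 0.799, and groups of 4 and 5 hearts are too small for a value within a genotype.

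**Figure D4:**
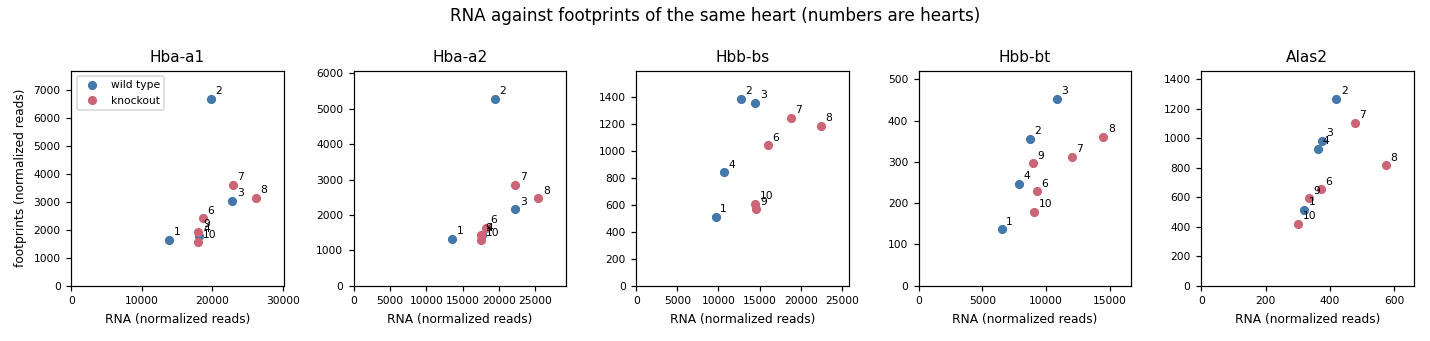
Footprints against RNA of the same heart for each gene, in normalized reads on linear axes from 0, with heart numbers and genotypes in separate colours. For Hbb-bs the knockout hearts lie to the right of wild-type hearts with similar footprints, and wild-type heart 2 lies above the others for Hba-a1 and Hba-a2.

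Other enzymes of heme synthesis were called in RNA at a share near that of all genes. None passed in footprints, where 0.02% of all genes did. Of 7 enzymes, 2 rose, 2 fell and 3 did not pass (57.1% called, against 49.4% of all genes), with a median log2 difference of -0.03 against 0.01 over all genes. Alas1, the housekeeping form of the first enzyme, fell from 5927 ± 291 (SD, n = 4) to 4376 ± 672 (SD, n = 5), a log2 value of -0.45 (limma adjusted p = 0.00269). Alad, which joins the product of that step into porphobilinogen, rose from 313 ± 11.8 to 670 ± 75.1, or 1.09 ± 0.08 on the log2 scale (SE), at a limma adjusted p = 1.85e-06. Urod, a later decarboxylase, rose by 0.32, and Cpox, which follows it, fell by 0.33 (limma adjusted p = 0.00361 and 0.00396). Uros, Ppox and Fech, the enzyme that inserts iron, were at -0.03, 0.33 and -0.17. Ppox passed without heart 1 or 9 (limma adjusted p = 0.0104 and 0.032) and Fech without heart 8 or 9 (limma adjusted p = 0.0489 and 0.0278). Footprint differences of the 7 lay between -0.18 for Cpox and 0.17 for Alad. In efficiency 1 fell, Alad at -0.92 (limma adjusted p = 0.00208), so 14.3% were called against 14.4% of all genes. RNA enters the ratio, so this value and the rise of Alad RNA are not independent. Alas1 efficiency, at 0.49, passed only with the replicate block (limma adjusted p = 0.0186, against 0.0912).

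**Figure D5:**
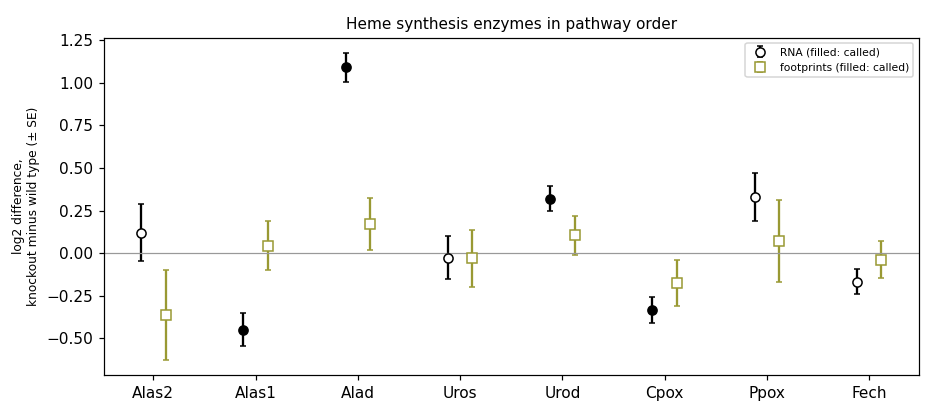
Log2 difference, knockout minus wild type, ± SE for enzymes of heme synthesis in pathway order, in RNA (circles) and footprints (squares), filled where limma called the gene. Alad RNA stands highest at 1.09, Alas1 RNA lowest at -0.45, and no footprint value is filled.

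Genes that supply iron to mitochondria or carry heme were tested next. Of 16 in RNA, 8 rose, 1 fell and 7 did not pass (56.2% called), with a median of 0.20. Over all genes 49.4% were called, 24.3% higher and 25.1% lower, and the list's direction was given no test of its own. Slc25a39, a mitochondrial carrier, rose by 0.45, Isca1, an iron-sulphur assembly protein, by 0.70, Slc48a1, a heme transporter, by 0.81 and Abcb10, a mitochondrial transporter of erythroid cells, by 0.59 (limma adjusted p = 0.000285 or less for each). The 1 gene that fell was Tfrc, the transferrin receptor through which erythroid cells take up iron, at -0.72 (limma adjusted p = 0.000396). None of the 16 passed in footprints, where 0.02% of all genes did. In efficiency only Glrx5, a glutaredoxin of iron-sulphur assembly, passed, at -0.47 (6.25% called, against 14.4% of all genes). The Glrx5 efficiency call was lost without heart 2, 3, 4, 7, 8 or 10 (limma adjusted p = 0.0581 to 0.0819). Abcb10 efficiency, at -0.53, passed with the replicate block (limma adjusted p = 0.0401, against 0.122) and without heart 7 (0.0391).

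Red-cell membrane and maturation genes were called in RNA about as often as all genes, in both directions. Of 31 genes, 16 were listed and tested; Slc4a1 and Ahsp, like the erythroid factors Gata1 and Klf1, were not analysed here. In RNA 5 rose and 3 fell (50% called, against 49.4% of all genes), with a median of 0.05. Prdx2, a peroxiredoxin abundant in red cells and present elsewhere, rose by 0.67 (limma adjusted p = 2.71e-06). The blood-group gene Rhd rose by 0.83, Aqp1, a water channel also made by endothelium, by 0.55, Gypc, a membrane glycoprotein, by 0.62 and Xpo7, an exportin, by 0.13 (limma adjusted p = 0.000534, 0.0108, 0.0305 and 0.0487). Gypc did not pass with quantile normalization or without heart 1, 2, 9 or 10, and Xpo7 without heart 1, 2, 4, 7, 8, 9 or 10 or in the authors' deposited table. The membrane skeleton genes Epb41, Ank1 and Dmtn, also expressed in other tissues, fell, at -0.44, -0.48 and -0.96 (limma adjusted p = 0.00032 or less for each). Over the 9 hearts, r of the 16 genes with the summed globin RNA ran from -0.62 to 0.61 with a median of 0.07. Alas2, the member that is no part of that sum, was at 0.821. In footprints the range was -0.51 to 0.65. None of the 16 passed in footprints, where 0.02% of all genes did. Efficiency fell for Prdx2 and Rhd, at -0.56 and -1.30, and rose for Epb41 by 0.38, whose call was lost with quantile normalization and without heart 3, 4, 6, 9 or 10. Thus 18.8% of the 16 were called in efficiency, against 14.4% of all genes. RNA enters the ratio, so these efficiency values and the RNA differences are not independent. Aqp1 efficiency, at -0.65, passed with the replicate block (limma adjusted p = 0.000669, against 0.111). Of 6 erythroid signalling and transcription genes 2 fell in RNA, Jak2 at -0.34 and Stat5a at -0.31, and 4 did not pass, among them Epor, the erythropoietin receptor, at 0.62. Stat5a efficiency, at 0.53, passed with the replicate block (limma adjusted p = 0.0153, against 0.0513) and without heart 10 (0.0479). It also passed in the authors' deposited table (the authors' adjusted p = 0.0458).

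Heme clearance held 2 calls among 7 genes in RNA (28.6%, against 49.4% of all genes), and both of the 2 other globins tested were called. Of 7 clearance genes, Hmox1, the inducible heme oxygenase, rose from 75.9 ± 14.3 (SD, n = 4) to 125 ± 25.5 (SD, n = 5), or by 0.71 (limma adjusted p = 0.00527), and Cd163, the macrophage receptor for haemoglobin bound to haptoglobin, fell by 0.37 (limma adjusted p = 0.0151). Myoglobin (Mb), the oxygen store of heart muscle, fell by 0.58 (limma adjusted p = 9.03e-05) and Cygb, a globin of stromal cells, rose by 0.37 (limma adjusted p = 0.00167). Neither passed in footprints, at -0.15 and 0.00, where 0.02% of all genes did. Mb efficiency passed at 0.43 (limma adjusted p = 0.0347), but not when any heart other than heart 6 was left out (limma adjusted p = 0.0547 to 0.078) or without the filter on low values (0.0787). Cygb efficiency was at -0.37 (limma adjusted p = 0.0635) and passed with the replicate block (limma adjusted p = 0.0423), with quantile normalization (0.0482) and without heart 2 (0.0467). It also passed in the authors' deposited table (the authors' adjusted p = 0.0312). Of all genes 14.4% passed in efficiency in the main fit.

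Markers of other blood cells gave the following values beside the rise of Hbb-bs, and their part in it was not tested. Of 14 platelet markers 3 were listed, and none passed (Pf4 at 0.32, Vwf at 0.26, F13a1 at -0.09); Vwf passed with quantile normalization and without heart 9 (limma adjusted p = 0.0309 and 0.00854) and Pf4 without heart 2 (limma adjusted p = 0.0134). These 3 genes had a summed RNA signal of 1677 to 1788 in wild type and 1570 to 2205 in knockout. Both listed lymphocyte markers of 15 fell in RNA, Ighm at -0.70 and Igkc at -1.08 (limma adjusted p = 0.00594 and 0.00675), and their sum was 277 to 376 in wild type and 149 to 256 in knockout. Of 13 neutrophil markers 2 were listed and 1 tested, without a call, with sums of 24.1 to 128 and 32.8 to 94.2. Of 11 macrophage and monocyte markers tested 3 rose, C1qc at 0.67, Adgre1 at 0.53 and Csf1r at 0.25, and 2 fell, Cd68 at -1.05 and Ly6c2 at -0.56 (45.5% called, against 49.4% of all genes), with sums of 5732 to 6447 and 5008 to 6875. Of 13 endothelial markers 4 rose, Egfl7 at 0.53, Esam at 0.38, Tie1 at 0.34 and Icam2 at 0.24, and 5 fell, among them Cdh5 and Emcn at -0.50 and -0.67 (69.2% called). Icam2 did not pass without heart 4, 7, 8 or 10. The labelled tissue was evident from cardiomyocyte markers, all 12 of which were listed, with summed RNA of at least 2154926 normalized reads in every heart. Of these 2 rose and 5 fell (58.3% called), with Mb lower and Mybpc3 at 0.42. None of these marker genes passed in footprints, where 0.02% of all genes did.

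Some genes outside the set tracked the globins across hearts as closely as Alas2 did. Likeness was measured as Pearson's r of log2 values with the log2 summed globin signal over 9 libraries. In RNA, of 10580 genes, 17 genes outside the set had a higher r than the 0.821 of Alas2. The 6 highest were Tmem167b (0.907), Nos2, the inducible nitric oxide synthase (0.898), Tbc1d10b (0.878), Actr5, a chromatin remodelling subunit (0.877), Alg2, a mannosyltransferase (0.871), and Dusp6, a phosphatase of ERK (0.868). In footprints, of 9976 genes, 32 exceeded the 0.853 of Alas2, led by the dipeptidase gene Dpep1 (0.949), Nfat5 (0.948), AW549877 (0.945), Erp29, a reticulum chaperone (0.945), Parp6 (0.935) and Tnrc6b (0.934). The 2 lists had no gene in common. With ranks in place of values, 2 of the 6 genes in RNA and 3 of the 6 in footprints were again among the first 6. With 9 hearts and this many genes, these values are a description only.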

How the data were processed

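Poly-A RNA and ribosome footprints were measured in 4 wild-type and 5 knockout hearts. STAR 2.7.1a, HTSeq, DESeq2 and the builds GRCm38 and mm10 are named in the submitters' processing notes, without a role. The sources used here do not state how reads shared by near-identical genes were counted. The deposited signal was taken to be gene counts divided by a size factor of each library, which the column headings do not state. A deposited ratio of footprints to RNA was within 0.0497% of that quotient. The log2 fold change and p-value columns are the authors' own, per the file headers. For efficiency the deposited fold change was wild type over knockout (94.8% of genes had the opposite sign), so it was turned round. Division by the smallest step gave whole reads for 100% of values in each RNA and footprint library (tolerance 0.01). Count tests were run on footprints only, and RNA depths rest on this division.

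Symbols were found for 10560 of 10597 gene IDs. limma 3.58.1 (R 4.3.3) was fitted with a trend to log2(value + 1), which understates changes of low genes, for genes with a mean of at least 10. Benjamini-Hochberg adjustment ran over all genes, and 0.05 was the threshold. Efficiency was the genotype by assay interaction over 18 libraries. RNA and footprint libraries sharing a number are labelled as the same left ventricle, which makes them pairs, and a replicate block for the heart was an alternative. Others were pseudocounts of 0.1 and 10, no filter, TMM factors (edgeR 4.0.16), quantile normalization, single hearts left out, the deposited fold changes, and edgeR and DESeq2 1.42.0 on footprint reads. Whole reads of a member in a footprint library ranged from 103 to 4392. Scripts were tested on simulated data. Promoters are from RefSeq (GRCm38.p6), where all 5 genes matched. The labels do not say that the hearts were prepared separately, so p-values measure the spread between these hearts.

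The members and lists were chosen with earlier results of these data known. Up to 4 genes per list, or 2 for markers of other cells, were named by smallest adjusted p in RNA, along with the 6 genes most like the summed globins. Uros, Ppox, Fech, Rhd, Glrx5, Tfrc, Epor, Aqp1, Gypc, Xpo7, C1qc, Adgre1, Csf1r, Egfl7, Tie1, Esam, Icam2 and the platelet genes were named after their values were seen. The promoter motifs, the ranking among protein-coding genes and the ratios of other genes to globins were also chosen after seeing the data. Some genes are not reported here.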

Additional observations from a re-analysis of the deposited data

Results flagged for a closer look

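Among 46 groups of 4 or 5 hearts examined for a heart far from the others (Dixon's test), 2 stood out, where chance gives about 1 in 20. In wild-type heart 2 footprints per RNA stood at 0.338 for Hba-a1, with the next heart at 0.133, and 0.273 for Hba-a2, with the next at 0.0975. The gap was 0.852 and 0.913 of the whole range, above the critical value of 0.829. The pair shares sequence and a library, so these are not separate observations. Heart 2 also had the shallowest footprint library, at 6.67 M reads (M for 1e6), and its part in the ratio was not tested.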

How the results depend on the processing

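Of 240 recomputed differences of the 5 genes, 224 kept their direction and side of the threshold, 3 came to pass and 13 changed sign. The number of members called in RNA was 2 in place of 1 with quantile normalization, and 1 to 2 when single hearts were left out. With the replicate block, which pairs the libraries of a heart, 1 member was called in efficiency in place of 0. Sign changes occurred on leaving out single hearts, where the log2 difference ranged from -0.01 to 0.22 for Alas2 RNA. In footprints the range was -0.45 to 0.22 for Hba-a1, -0.46 to 0.20 for Hba-a2, -0.402 to 0.077 for Hbb-bs and -0.35 to 0.22 for Hbb-bt. In efficiency it was -0.57 to 0.03 for Hba-a1 and -0.57 to 0.01 for Hba-a2 (0.015 without wild-type heart 2). The ratio of knockout to wild-type summed globin footprints was 0.793 and ran from 0.681 to 1.14, the latter without wild-type heart 2, and in RNA it was 1.203, from 1.11 to 1.30. The same-heart r of Hbb-bs was 0.873 with genotype means subtracted, and that of Alas2 0.943 without 2 hearts; the cause was not tested. Counts called in the other gene lists were within 1.5 times of those given in 528 of 576 recomputations. Of 963 recomputations for named genes of those lists, 887 kept direction and call, 51 no longer passed, 22 came to pass and 3 changed sign (Uros RNA, -0.086 to 0.056 with single hearts left out). The fewest reads behind a member's value were 103, for Hbb-bt footprints in wild-type heart 2. The planned edgeR and DESeq2 tests on RNA were not run.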
